A study of Mus musculus with 47 samples.

Results

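Clec4a1, Clec4a2, Clec4a3, Clec4d, Clec4e, Clec4n, Clec5a, Clec7a and Clec12a encode C-type lectin pattern receptors of myeloid cells. These 9 genes were taken by their symbols, and all 9 were found among the 51912 genes of the tables from bone marrow-derived macrophages (BMDMs). In the Raw264.7 tables they were found among 12771 genes (D/E-A), 23772 genes (Zmynd8 KO), 22599 genes (K122R) and 22863 genes (p65 KO). All 9 lie on mouse chromosome 6. In mm10, Clec4a1 (ENSMUSG00000049037), Clec4a3 (ENSMUSG00000043832), Clec4a2 (ENSMUSG00000030148), Clec4n (ENSMUSG00000023349), Clec4d (ENSMUSG00000030144) and Clec4e (ENSMUSG00000030142) stand in that order within chr6:122921848-123289871, a stretch of 368 kb. Clec12a (ENSMUSG00000053063) and Clec7a (ENSMUSG00000079293) lie within chr6:129349785-129472779, and Clec5a (ENSMUSG00000029915) stands apart at chr6:40574898-40585805.

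C-type lectin receptors bind sugars and lipids of fungi, mycobacteria and dying cells through a lectin-like domain outside the cell. The activating members signal through an ITAM, either a motif of their own (Clec7a) or that of a partner such as the Fc receptor gamma chain (Fcer1g) or DAP12 (Tyrobp), to the kinase Syk and the adaptor Card9. The inhibitory members Clec4a2 and Clec12a carry an ITIM in their own tails that recruits phosphatases.

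RNA-seq libraries from 12 samples were analysed out of the 47 samples of the series, and the other 35 samples were not analysed here. BMDMs are macrophages grown from bone marrow with the growth factor M-CSF, here from C57BL/6 mice. The study asked how the chromatin reader ZMYND8 acts on macrophage genes, comparing WT with Zmynd8 cKO mice. Raw264.7 is a mouse macrophage-like tumour line.

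The WT mice were littermates with floxed Zmynd8 alleles and no Cre, and the Zmynd8 cKO mice carried the same alleles with Cre expressed from 1 Lyz2 allele, which is active in myeloid cells. Mouse age was not given in the sources used here. Cells of each genotype were untreated (NT), received LPS, which is part of the outer membrane of bacteria, at 100 ng/ml, or received the type 2 cytokine IL-4 at 20 ng/ml, each for 6 h. Biological replicates were mixed before sequencing, so each genotype and treatment had 1 library. The libraries held 26209347 (WT NT), 22597421 (cKO NT), 24902784 (WT LPS), 23430560 (cKO LPS), 28386625 (WT IL-4) and 26128552 (cKO IL-4) counts. The titles of the IL-4 libraries carried index numbers outside the consecutive ones of NT and LPS. Their meaning was not given, so any difference in handling cannot be told apart from IL-4.

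The 6 Raw264.7 lines were made with CRISPR vectors, with 1 library each, and their labels also name the strain C57BL/6 and bone marrow as the source. A first set lacked Zmynd8 (Zmynd8 KO), or lacked it and expressed WT Zmynd8 or a D/E-A form in which acidic residues were changed to alanine, and their labels give no treatment. The paper's Results place the WT Zmynd8 and D/E-A libraries after LPS, and no treatment was found for Zmynd8 KO. The Zmynd8 KO library held 21042507 reads and the WT Zmynd8 library 18397028, while the D/E-A table listed 17930091 reads over the fewer genes it holds, which is not a full depth. A second set was labelled LPS and lacked p65, the NF-κB subunit encoded by Rela (p65 KO, 15127110 reads), or lacked it and expressed WT p65 (15665382 reads) or the K122R form (16653841 reads). The header of the WT p65 column reads WT with LPS, without p65 KO, and whether it holds p65-restored or unmodified cells cannot be told from it.

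Zmynd8 counts did not separate the BMDM genotypes. Zmynd8 had 2284 counts in the WT NT library and 1842 in the library labelled cKO, 1967 and 2033 with LPS, and 3636 and 3944 with IL-4, so the libraries labelled cKO were lower in NT and higher after LPS and IL-4. The loxP sites flank exons within the gene, and counts over the whole gene do not show their loss, so library names here follow the labels. Lyz2, the locus that carries Cre, was lower in each library labelled cKO, with 287004 and 162753 counts in WT and cKO NT, 171869 and 67763 with LPS, and 253808 and 137038 with IL-4. Rela ranged from 2178 counts (WT NT) to 2851 (WT IL-4). Xist ranged from 6133 counts (WT LPS) to 31447 (WT IL-4), and the Y-linked Ddx3y had 0 counts in all 6 libraries. The 10 macrophage markers were all above 3 counts in all 6 libraries, with summed levels of 9494 and 9880.2 CPM, counts scaled to the library total, in WT and cKO NT, 8386 and 8448.7 with LPS, and 15730.1 and 15604 with IL-4, led by Cd68, Fcgr1, Adgre1 or Csf1r.

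Lists for neutrophils and other cell types summed to less than the macrophage list in each BMDM library. The 11 neutrophil markers summed to 102 and 119 CPM in WT and cKO NT, 13.6 and 19.5 with LPS, and 403 and 535 with IL-4. Mmp8 led them in NT and after LPS and S100a9 after IL-4, with 10 of 11 above 3 counts in the IL-4 libraries against 5 and 4 in NT, where Elane and Mpo were at 0 in both. The monocyte markers, led by Ccr2, summed to 7.40 and 16.0 CPM in WT and cKO NT and to 87.7 and 201 with IL-4. Dendritic cell markers summed to 1.76 and 0.841 CPM in WT and cKO NT, 17.8 and 23.3 with LPS, and 6.02 and 6.70 with IL-4. B cell markers stayed at or under 17.2 CPM in sum in each BMDM library, and eosinophil markers at or under 4.36. Mast cell and basophil markers stayed at or under 0.383, and T and NK cell markers at or under 0.161. Fewer cells of a type and less RNA per cell cannot be told apart in these libraries. The part of these marker levels in the results for the receptors was not tested.

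The Raw264.7 libraries fell into separate groups that went against their shared label. Xist, which marks an inactive X chromosome, had 7109 reads in Zmynd8 KO, 8467 in WT Zmynd8 and 8062 in D/E-A, against 3, 2 and 0 in p65 KO, WT p65 and K122R. The Y-linked Ddx3y had 0 and 1 reads in Zmynd8 KO and WT Zmynd8, against 677, 400 and 1810 in p65 KO, WT p65 and K122R. Raw264.7 was derived from a male mouse, so Zmynd8 KO and WT Zmynd8 did not carry the sex-linked transcripts of their label. For D/E-A this rests on Xist alone, since Ddx3y was not among the genes listed in its table. The neutrophil markers were at 11 of 11 above 3 reads in each Zmynd8 library, with summed levels of 7047, 10487 and 4482 RPM, reads scaled to the library total, in the KO, WT and D/E-A libraries (led by S100a9, S100a9 and Ngp), against 0 of 11 in each p65 library, with sums of at most 0.383. The macrophage markers were at 10 of 10 in each Zmynd8 library (sums 6370, 5660.2 and 6754, led by C1qb) and at 9, 9 and 6 of 10 in p65 KO, WT p65 and K122R (sums 1984, 1628 and 1966, led by Cd14), with C1qa at 0 in WT p65 and C1qc at 0 in K122R. These libraries are therefore called by their labels only, and the sets are reported apart.

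Other marker lists separated the sets as well. Monocyte markers summed to 1246 (Zmynd8 KO), 1254 (WT Zmynd8) and 892 (D/E-A) RPM, led by Ly6c2, against at most 14.9 in the p65 libraries, where Ly6c2 was at 0. B cell markers summed to between 140.1 (Zmynd8 KO) and 193 (D/E-A), against at most 8.83, and eosinophil markers to between 67.8 (D/E-A) and 191 (WT Zmynd8), against at most 0.638. Dendritic cell markers summed to 173, 196 and 134 in the Zmynd8 libraries and 42.7, 39.6 and 30.9 in p65 KO, WT p65 and K122R. T and NK cell markers reached at most 5.27 and mast cell and basophil markers at most 10.4, both in WT Zmynd8. Reads of the ribosomal gene Rn18s-rs5 made up 11.1% (Zmynd8 KO), 13.7% (WT Zmynd8) and 6.50% (D/E-A) of the libraries, against 0.205%, 0.179% and 0.509% in p65 KO, WT p65 and K122R. Their part in the receptor levels was not tested.

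Rela and Zmynd8 were then read in each Raw264.7 library. Rela had 765 reads in p65 KO, 1601 in WT p65 and 5850 in K122R, so it was lowest in p65 KO but not absent. Zmynd8 had 485 reads in WT Zmynd8 and 497 in D/E-A, while its value in the library labelled Zmynd8 KO was not a whole number of reads and was not used. In the p65 libraries Zmynd8 had 1624 reads in p65 KO, 1826 in WT p65 and 1070 in K122R.

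The receptors were compared with each other in BMDMs by deposited TPM, which is scaled to transcript length and library size. Clec4e (Mincle), an activating receptor for mycobacterial cord factor that pairs with Fcer1g, stood at 34.5 TPM in WT NT, 16.5 in cKO NT, 463 in WT LPS, 548 in cKO LPS, 29.3 in WT IL-4 and 82.3 in cKO IL-4. Both LPS libraries were above every other library, and the cKO IL-4 library was above both NT libraries while the WT IL-4 library lay between them. Clec4d (MCL or Dectin-3), which pairs with Clec4e, stood at 535 and 592 TPM in WT and cKO NT, 248 and 271 with LPS, and 215 and 278 with IL-4. Both NT libraries of Clec4d were above the 4 treated libraries, whose ranges overlapped.

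Clec7a (Dectin-1), the receptor for fungal beta-glucan, stood at 200.1 and 125 TPM in WT and cKO NT, 56.0 and 59.2 in the LPS libraries, and 2539 and 1638 in the IL-4 libraries. Its 3 treatments did not overlap, and after IL-4 it stood at percentiles 99.8 (WT) and 99.6 (cKO) among the genes above 0. Clec4n (Dectin-2), which binds fungal mannans, stood at 61.99 and 60.7 TPM in WT and cKO NT, 39.5 and 43.8 with LPS, and 6.47 and 8.72 with IL-4. IL-4 thus gave the highest level of Clec7a and the lowest of Clec4n among the 3 treatments. Clec5a (MDL-1), which pairs with Tyrobp and binds flaviviruses, stood at 29.7 and 34.5 TPM in WT and cKO NT, 11.5 and 15.7 with LPS, and 81.8 and 106 with IL-4. It was higher in the library labelled cKO at each treatment.

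Clec4a1 (DCIR4), a relative of the inhibitory Clec4a2, stood at 62.8 and 39.8 TPM in WT and cKO NT, 171 and 163 with LPS, and 186 and 289.8 with IL-4. Clec4a3 (DCIR3), another relative, stood at 40.7 and 22.8 TPM in WT and cKO NT, 54.7 and 33.7 with LPS, and 174 and 137 with IL-4. All 4 treated libraries were above both NT libraries for Clec4a1, while for Clec4a3 the cKO LPS library lay between the NT libraries. Clec4a2 (DCIR1), with an ITIM, stood at 94.6 and 89.3 TPM in WT and cKO NT, 38.2 and 31.3 with LPS, and 125 and 94.5 with IL-4, so it was lowest in the LPS libraries and its cKO IL-4 library lay between the NT libraries. Clec12a (MICL), an inhibitory receptor for uric acid crystals, stood at 192 and 163 TPM in WT and cKO NT, 124 and 142 with LPS, and 318 and 305 with IL-4, and its 3 treatments did not overlap on this scale.

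**Figure D1:**
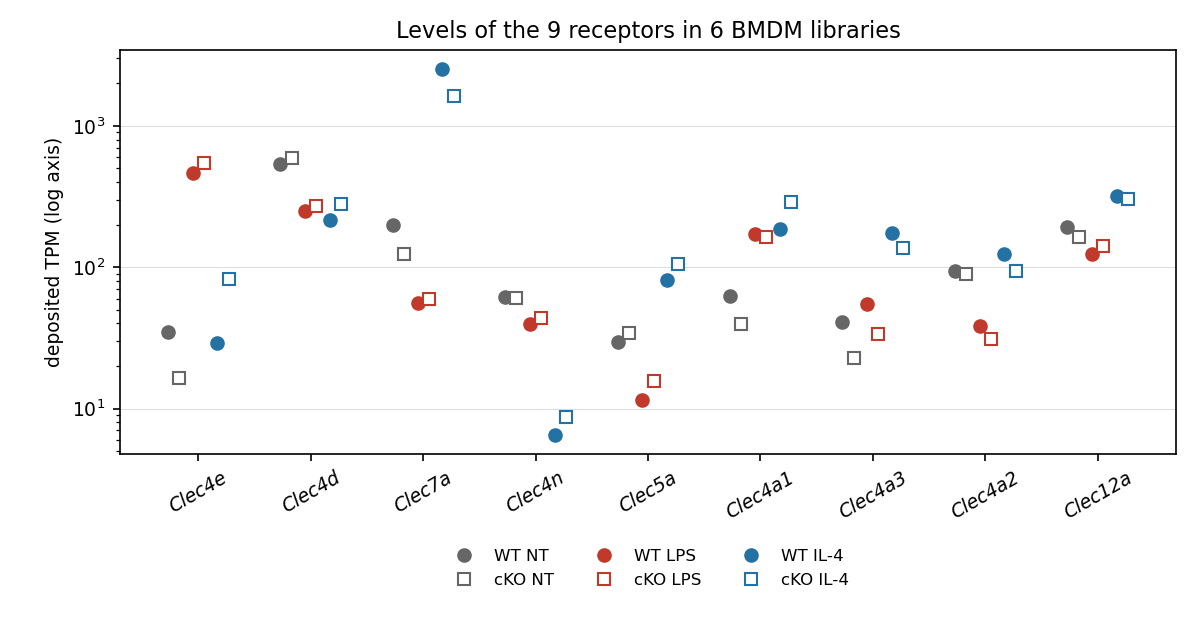
Deposited TPM (log axis) of the 9 receptors in the 6 BMDM libraries, 1 point per library, filled circles for WT and open squares for libraries labelled cKO, with colours for NT, LPS and IL-4. Clec7a reaches 2539 TPM in WT IL-4 and Clec4e 548 TPM in cKO LPS, while Clec4n falls to 6.47 TPM in WT IL-4.

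Clec7a spanned 45.3-fold and Clec4e 33.2-fold between their lowest and highest TPM among the 6 libraries. The spans were 9.58-fold for Clec4n, 9.20-fold for Clec5a, 7.63-fold for Clec4a3, 7.28-fold for Clec4a1 and 3.99-fold for Clec4a2, and they were narrowest for Clec4d (2.76-fold) and Clec12a (2.56-fold). Averaged over both genotypes on the log2 scale, the order in NT ran Clec4d, Clec12a, Clec7a, Clec4a2, Clec4n, Clec4a1, Clec5a, Clec4a3, Clec4e. In that order, 4 of the 8 neighbouring pairs overlapped between genotypes, namely Clec12a with Clec7a, Clec4n with Clec4a1, Clec5a with Clec4a3, and Clec4a3 with Clec4e. After LPS, Clec4e came first, followed by Clec4d, Clec4a1, Clec12a, Clec7a, Clec4a3, Clec4n, Clec4a2 and Clec5a, and 1 of 8 pairs overlapped, Clec4a3 with Clec4n. After IL-4, Clec7a came first, followed by Clec12a, Clec4d, Clec4a1, Clec4a3, Clec4a2, Clec5a, Clec4e and Clec4n, and 3 of 8 pairs overlapped. Ranking WT NT by CPM divided by the length in its own table placed 4 of 9 receptors where TPM placed them, and moved Clec4e from rank 8 to rank 5 and Clec4a1 from rank 5 to rank 9. The listed lengths differ between tables (Clec4e 370 bases with NT and LPS, 4804 with IL-4), and with those of the IL-4 table Clec4e ranked 8 and Clec4a1 ranked 4 in WT NT.

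LPS against NT asked how the receptors change in classical activation, over both genotypes. The counts were fitted with edgeR's quasi-likelihood test on all 6 libraries, with genotype and treatment as additive terms, TMM scaling, 2 residual degrees of freedom and 13074 genes tested. The spread is what this additive model leaves over, since no condition has a second library. The test moderates the spread of each gene with that of the other genes. Each SE is the size of the log2 fold change divided by the square root of the test's F statistic. A gene was called at a fold of at least 1.2 and an adjusted p under 0.05. LPS raised 3 of the 9 receptors, where 25.1% of all genes tested were called higher, and lowered 3, where 25.7% were called lower.

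Clec4e had 1313 and 716 counts in WT and cKO NT and 18341 and 19316 after LPS, and rose by a log2 fold change of 4.87 (SE 0.55, adjusted p = 0.000745 by edgeR's quasi-likelihood test with Benjamini-Hochberg adjustment). Clec4a1 stood at 58.4 and 44.3 CPM in NT and 167 and 149.98 after LPS, a log2 fold change of 2.28 (SE 0.29, adjusted p = 0.00123 by the same edgeR test). Both genes were higher in each LPS library than in either NT library. Clec4a3, with 744 and 438 counts in NT and 1042 and 580 after LPS, rose by 1.11 (SE 0.19, adjusted p = 0.0038 by the same edgeR test), although its cKO LPS count lay below its WT NT count.

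Clec7a fell by 0.97 on the log2 scale (SE 0.23), with 4701 and 3273 counts in WT and cKO NT and 1324 and 1197 after LPS. Clec4a2 fell by 0.93 (SE 0.19), with 1544 and 1256 counts in NT and 564 and 379 after LPS, and Clec5a fell by 0.71 (SE 0.17), with 691 and 845 counts in NT and 265 and 329 after LPS. In all 3 genes both LPS libraries were below both NT libraries. Their adjusted p values were 0.0122, 0.00769 and 0.0141 by edgeR's quasi-likelihood test. Clec5a was not called without the cKO LPS library (log2 fold change -0.64), without the WT IL-4 library (-0.71) or without the cKO IL-4 library (-0.71), nor with the NT and LPS libraries alone (-0.71), and its adjusted p ran from 0.00103 to 0.0953 over all edgeR and DESeq2 alternatives. Clec4a2 was not called without the cKO LPS library (-0.76), nor Clec7a without the WT LPS library (-0.82).

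Clec4d (log2 fold change -0.59, SE 0.22, adjusted p = 0.0596 by edgeR's quasi-likelihood test), Clec12a (0.14, SE 0.20) and Clec4n (-0.00, SE 0.18) were not called after LPS. Clec4d had 9544 and 10899 counts in WT and cKO NT and 4370 and 4156 after LPS, so both LPS libraries were lower, and it was called at -0.73 without the WT NT library, at -0.65 without the filter on low counts and at -0.54 by DESeq2. Clec4n turned to 0.16 without the cKO LPS library and to 0.01 without the cKO NT library, with no call. The scaling mattered here, because the TMM factors were 0.70 and 0.72 in the WT and cKO LPS libraries against 1.13 and 1.11 in NT. With library totals in place of TMM the median log2 fold change of all genes moved to -0.68, calls went from 3283 higher and 3354 lower to 1921 higher and 6241 lower, Clec12a turned to -0.51, Clec4a3 kept 0.46 without a call, and Clec4d (-1.24) and Clec4n (-0.65) were called. Directions after LPS are therefore relative to the median gene under TMM.

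**Figure D2:**
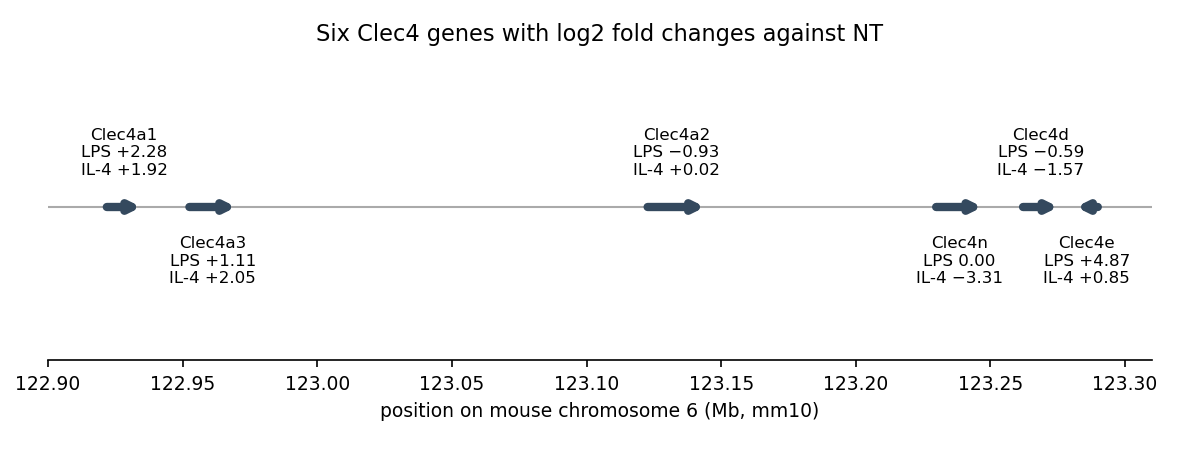
Positions of 6 receptor genes on mouse chromosome 6 in mm10 (horizontal axis in Mb), each arrow drawn to scale and pointing in the direction of transcription, with the log2 fold changes of LPS and IL-4 against NT from the edgeR fit beside it. Clec4d and Clec4e lie side by side with log2 fold changes after LPS of -0.59 and 4.87, and among these 6 genes median-ratio scaling turns Clec4n to 0.05 after LPS, while library totals turn none.

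IL-4 against NT asked the same of alternative activation, in the same fit. IL-4 raised 4 of the 9 receptors, where 10.6% of all genes tested were called higher, and lowered 2, where 10.2% were called lower. Clec7a had 4701 and 3273 counts in WT and cKO NT and 58962 and 36692 after IL-4, a log2 fold change of 3.24 (SE 0.24, adjusted p = 0.000538 by edgeR's quasi-likelihood test). Clec4a3 rose by 2.05 (SE 0.20), from 744 and 438 counts to 3467 and 2561, and Clec4a1 by 1.92 (SE 0.29), from 58.4 and 44.3 CPM to 169.8 and 270.2. Clec5a rose by 1.33 (SE 0.17), from 691 and 845 counts to 2158 and 2713. All 4 genes were higher in each IL-4 library than in either NT library.

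Clec4n fell by 3.31 after IL-4 (SE 0.20, adjusted p = 0.00038 by edgeR's quasi-likelihood test), from 1067 and 1105 counts to 121 and 156. Clec4d fell by 1.57 (SE 0.22, adjusted p = 0.00474 by the same edgeR test), from 9544 and 10899 counts to 3925 and 4791. Both were lower in each IL-4 library than in either NT library. The adjusted p of Clec4a3, Clec4a1 and Clec5a was 0.00115, 0.0064 and 0.00337 by the same edgeR test, and none of the 6 calls was lost under any alternative run.

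Clec4e (0.85, SE 0.49), Clec12a (0.50, SE 0.20) and Clec4a2 (0.02, SE 0.19) were not called after IL-4. The value of Clec4e rested on the cKO IL-4 library, which had 3490 counts against 1318 in the WT IL-4 library. Without the cKO IL-4 library its log2 fold change was -0.08, and without the WT IL-4 library it was 1.69 and called, as it was without the WT NT library (1.57), with adjusted p values from 0.00818 to 0.964 over all edgeR and DESeq2 alternatives. Clec4a2 turned to -0.17 without the WT NT library, with no call. Over all genes, 2718 were called after IL-4, against 4423 without the WT NT library, 1582 without the WT IL-4 library and 1541 without the cKO IL-4 library. Library totals in place of TMM moved the median gene to 0.17 after IL-4 and turned none of the 9 receptors. Treatment markers moved with the treatments, since all 8 LPS markers were called higher after LPS and 6 of 8 IL-4 markers after IL-4, but 4 of 8 LPS markers were called higher after IL-4 as well, and 3 of 8 IL-4 markers higher and 2 lower after LPS.

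Libraries labelled cKO were first set against WT over all 3 treatments in the same fit, which asked for a shift shared by NT, LPS and IL-4. By edgeR's quasi-likelihood test 0 of the 9 receptors were called, with 0% of all genes called higher and 0% lower. At an unadjusted p under 0.05 that test gave 403 genes, DESeq2 called 40 genes and edgeR without the filter on low counts called 32. Leaving out 1 library gave from 5 genes (without WT NT) to 24 (without WT LPS), and 0 receptors. Clec4a3 had a log2 fold change of -0.55 (SE 0.15) and Clec5a of 0.45 (SE 0.14), each in the same direction at all 3 treatments, with adjusted p = 0.999 for both in edgeR's quasi-likelihood test. For Clec4e the value was 0.33 (SE 0.40), and without either IL-4 library it turned to -0.25, as did Clec4a1 from 0.03 to -0.28.

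Within a treatment, the comparison of cKO with WT had 1 library on each side and therefore no replicate check. Log2 fold changes came from CPM plus 1, and calls needed a fold of at least 1.2 and an adjusted p under 0.05 by the exact binomial test (both sides) of its counts, which compares the 2 libraries and not the conditions. Limits in brackets are 95% Clopper-Pearson limits and cover counting error only. With edgeR's exact test at an assumed biological coefficient of variation of 0.2 in its place, 0 of the 6 receptor calls in NT, 0 of the 3 with LPS and 1 of the 8 with IL-4 (Clec4e) remained.

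In NT, 2 of the 9 receptors were called higher in the library labelled cKO, where 21.7% of the 12463 genes tested were, and 4 were called lower, where 25.9% were. Clec4e was lowest relative to WT, at 50.1 CPM in WT and 31.7 in cKO, a log2 fold change of -0.64 (-0.79 to -0.53). Clec4a3 (28.4 and 19.4 CPM, -0.53), Clec4a1 (58.4 and 44.3 CPM, -0.39) and Clec7a (179 and 145 CPM, -0.31) were also lower. Clec5a (26.4 and 37.4 CPM, 0.49) and Clec4d (364 and 482 CPM, 0.40) were higher. On deposited TPM, Clec4e (-1.02), Clec4a3 (-0.81), Clec7a (-0.68) and Clec4a1 (-0.65) were further below WT, while Clec4d (0.15) and Clec5a (0.21) stayed under the 1.2 fold, Clec12a stood at -0.24 against 0.02 by CPM, and Clec4n at -0.03 against 0.26. Clec4n, at 40.7 and 48.9 CPM, was called with TMM (0.28), with median-ratio scaling (0.27) and with a pseudocount of 0.1 (0.26).

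After LPS, 1 receptor was called higher in the library labelled cKO, where 17.1% of the 12386 genes tested were, and 2 were called lower, where 8.76% were. Clec4a3 stood at 41.8 CPM in WT and 24.8 in cKO, a log2 fold change of -0.73 (-0.91 to -0.61), and Clec4a2 at 22.6 and 16.2 CPM (-0.46, -0.68 to -0.30). Clec5a stood at 10.6 and 14.0 CPM (0.37, 0.16 to 0.64). Clec4e, the receptor with the largest rise after LPS, differed by 0.16 (0.13 to 0.19) between 737 CPM in WT and 824 in cKO, which was under the 1.2 fold.

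After IL-4, 5 receptors were called higher in the library labelled cKO, where 13.8% of the 13245 genes tested were, and 3 were called lower, where 10.5% were. Clec4e stood at 46.4 CPM in WT and 134 in cKO, a log2 fold change of 1.504 (1.43 to 1.62), the only member past a fold of 2 in any of the 3 treatments. Clec4a1 stood at 169.8 and 270.2 CPM (0.67, 0.62 to 0.72), Clec5a at 76.0 and 104 (0.44), Clec4n at 4.26 and 5.97 (0.41, 0.13 to 0.84) and Clec4d at 138 and 183 (0.40). Clec7a stood at 2077 and 1404 CPM (-0.56, -0.58 to -0.55), Clec4a2 at 73.6 and 58.4 (-0.33) and Clec4a3 at 122.1 and 98.02 (-0.31). Clec12a differed by 0.02, 0.09 and -0.03 in NT, LPS and IL-4 and was not called in any of them.

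**Figure D3:**
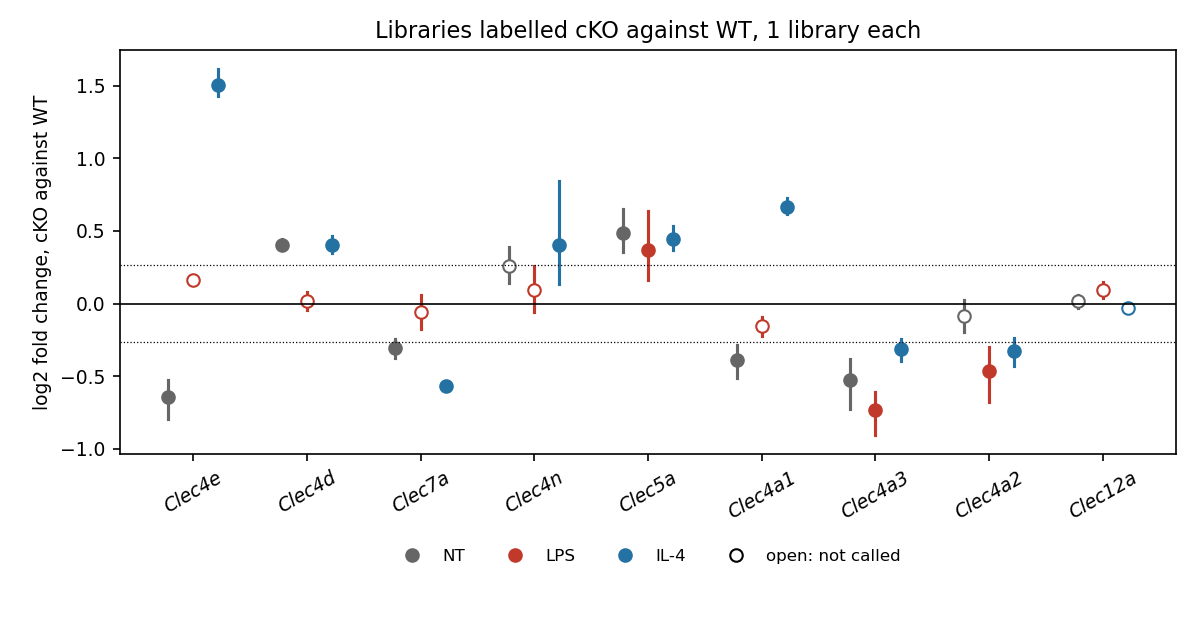
Log2 fold change of the library labelled cKO against the WT library for each receptor in NT, LPS and IL-4 (vertical axis), with vertical lines for 95% Clopper-Pearson limits that cover counting error only, filled circles for called genes and dotted lines at the fold of 1.2. Clec4e lies at -0.64 in NT and 1.504 after IL-4, Clec4a3 is below 0 and Clec5a above 0 at all 3 treatments, and library totals, TMM and median-ratio scaling turn no called value.

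LPS markers were read beside Clec4e between the genotypes, and no test of a joint change was made. In the library labelled cKO, 1 of 6 LPS markers tested was called higher and 3 lower in NT (median log2 fold change -0.59), 6 of 8 higher and 0 lower after LPS (median 0.65, where Clec4e was not called), and 8 of 8 higher after IL-4 (median 1.63). The medians of all genes tested were -0.01, 0.03 and 0.01. Of all genes tested, 21.7% were called higher and 25.9% lower in NT. These shares were 17.1% and 8.76% with LPS, and 13.8% and 10.5% with IL-4. Acod1, the enzyme that makes itaconate, stood at 56.3 and 27.9 CPM in WT and cKO NT, 4447 and 5427 with LPS, and 260.2 and 1166 with IL-4. Tnf stood at 33.1 and 45.3 CPM in NT, 169 and 267 with LPS, and 38.7 and 129 with IL-4. The monocyte markers (87.7 CPM in WT and 201 in cKO) and the neutrophil markers (403 and 535) were also higher in the cKO IL-4 library. Of the IL-4 markers, 1 was called higher and 1 lower of 6 tested in NT, 2 and 1 of 7 with LPS, and 2 and 3 of 8 with IL-4. The part of these genes and markers in the values of Clec4e and Clec4a1 was not tested.

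The 14 signalling partners of the receptors gave 9 called higher and 0 lower after LPS, with a median log2 fold change of 1.15 against -0.03 for all genes tested. Of all genes tested, 25.1% were called higher and 25.7% lower after LPS, and 10.6% higher and 10.2% lower after IL-4. Fcer1g, the gamma chain used by Clec4e, Clec4d and Clec4n, stood at 573 and 774 CPM in WT and cKO NT, 1455 and 1228 with LPS, and 867 and 872 with IL-4, a rise of 1.65 after LPS (SE 0.27). Tyrobp, the partner of Clec5a, stood at 640.2 and 953 CPM in NT, 342 and 292 with LPS, and 606 and 530.1 with IL-4, and was not called after LPS (-0.67, SE 0.28). Syk rose by 1.19 after LPS (SE 0.25), and Ptpn6, a phosphatase recruited by ITIMs, by 1.62 (SE 0.21). After IL-4, 3 partners were called higher and 0 lower (median 0.46 against 0.00 for all genes), among them Prkcd, a kinase downstream of Syk, at 229 and 210.2 CPM in WT and cKO NT and 2540.4 and 1856 after IL-4 (3.14, SE 0.26).

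Between the libraries labelled cKO and WT, 2 partners were called higher and 5 lower in NT, 2 and 0 with LPS, and 3 and 1 with IL-4. Shares over all genes tested were 21.7% higher and 25.9% lower in NT. They were 17.1% and 8.76% with LPS, and 13.8% and 10.5% with IL-4. Tyrobp (0.57) and Fcer1g (0.43) were higher and Syk (-0.34) lower in NT, while Syk (0.38) was higher and Prkcd (-0.45) lower after IL-4. Of 25 other C-type lectin receptors, 13 were tested in the fit, with 7 called higher and 3 lower after LPS and 4 higher and 1 lower after IL-4. In the library labelled cKO, 2 of these lectins were called higher and 3 lower of 9 tested in NT, 2 and 3 of 10 with LPS, and 4 and 4 of 15 with IL-4. Mrc1, the mannose receptor, stood at 444 and 279.8 CPM in WT and cKO NT, 46.2 and 51.6 with LPS, and 1131 and 904 with IL-4, with log2 fold changes of -2.20 (SE 0.26) after LPS and 1.34 (SE 0.25) after IL-4. Mrc1 was thus high and low in the same treatments as Clec7a. Clec2d rose by 1.60 after LPS (SE 0.26) and Cd302 by 1.40 (SE 0.22), while Clec10a, a galactose-type lectin, fell both after LPS (-3.00, SE 0.48) and after IL-4 (-3.498, SE 0.47).

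Among 9933 genes averaging 100 counts or more, those whose pattern over the 6 libraries was most like that of Clec4e by Pearson r of log2 CPM plus 1 were Cxcl10 (r = 0.998), Sema4c (0.998) and Aoah (0.996). Cxcl10 stood at 25.4 and 8.67 CPM in WT and cKO NT, 2859 and 3072 with LPS, and 22.2 and 97.8 with IL-4, so it was high after LPS and higher in the cKO than in the WT IL-4 library, as Clec4e was. For Clec7a, Ccni (0.9997) and Sh3tc1 (0.998) were among the closest, and Ccni stood at 92.9 and 89.7 CPM in NT, 73.8 and 73.4 with LPS, and 155 and 141 with IL-4. For Clec4a2 they were Brf2 (0.999), Pla2g12a (0.999) and Aph1c (0.998). These coefficients describe 6 libraries that share 3 treatments and are no sign of a shared function.

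Reads could be split between genes that share sequence. Of the 50-base words in annotated transcripts, 6.83% of those of Clec4a2 also occur in other genes, most in its paralog Clec4a4 (3.85%). For Clec4n the share was 0.686%, all with the gene model Gm44147, for Clec12a it was 0.457%, and for the other 6 receptors it was 0%. Words of Clec4a2 were shared with 447 genes. How far this affects its level is not known, since the handling of shared reads was not given in the sources used here.

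Promoters of 8 of the 9 receptors, from 250 bases before to 50 bases after the start, were taken from RefSeq in build GRCm38.p6, giving 10 promoters. Both strands were searched for NF-κB (GGG, any 2 bases, TT, any base, CC, held by 4.79% of 32851 mouse promoters), C/EBP (TTGCNNAA, 10.8%), PU.1 (GAGGAAGT, 3.20%) and STAT6 (TTC, any 4 bases, GAA, 6.95%). A C/EBP match lay in the promoters of Clec4e and Clec12a, and a STAT6 match in those of Clec7a, Clec4a1 and Clec5a. The promoters of Clec4a2, Clec4a3 and Clec4d held none of the 4 motifs, and NF-κB and PU.1 had no match in any of the 10. A match is a description of letters in this window and not a binding site. The sequences given are the promoters of receptors called after LPS or IL-4 that held a match, at chr6:123289822-123290121 (Clec4e, minus strand), chr6:129472730-129473029 (Clec7a, minus strand), chr6:122921598-122921897 (Clec4a1, plus strand) and chr6:40585756-40586055 (Clec5a, minus strand). Another Clec7a promoter, at chr6:129472736-129473035, overlaps the one given and holds the same match at bases 126 to 135, so it is not repeated. Each sequence runs 5′ to 3′ on the gene's strand. Capitals mark the C/EBP match in Clec4e (bases 185 to 192) and the STAT6 match in Clec7a (120 to 129), Clec4a1 (7 to 16) and Clec5a (153 to 162), and no match overlapped another motif searched.
Clec4e: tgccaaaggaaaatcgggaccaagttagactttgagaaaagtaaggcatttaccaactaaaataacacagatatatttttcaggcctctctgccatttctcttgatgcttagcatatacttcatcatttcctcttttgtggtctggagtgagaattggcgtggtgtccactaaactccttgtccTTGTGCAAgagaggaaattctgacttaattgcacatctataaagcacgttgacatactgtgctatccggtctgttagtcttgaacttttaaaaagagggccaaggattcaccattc
Clec7a: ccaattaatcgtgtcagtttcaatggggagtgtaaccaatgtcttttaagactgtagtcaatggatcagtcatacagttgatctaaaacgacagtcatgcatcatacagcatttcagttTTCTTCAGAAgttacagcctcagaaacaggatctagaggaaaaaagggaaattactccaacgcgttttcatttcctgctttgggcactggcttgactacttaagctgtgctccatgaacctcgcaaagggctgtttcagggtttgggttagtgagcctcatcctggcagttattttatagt
Clec4a1: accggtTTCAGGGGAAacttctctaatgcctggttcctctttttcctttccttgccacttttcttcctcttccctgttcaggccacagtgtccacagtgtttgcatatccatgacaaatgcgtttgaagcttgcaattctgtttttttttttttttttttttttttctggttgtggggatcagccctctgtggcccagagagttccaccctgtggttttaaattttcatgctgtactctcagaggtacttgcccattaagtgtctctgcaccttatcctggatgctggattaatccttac
Clec5a: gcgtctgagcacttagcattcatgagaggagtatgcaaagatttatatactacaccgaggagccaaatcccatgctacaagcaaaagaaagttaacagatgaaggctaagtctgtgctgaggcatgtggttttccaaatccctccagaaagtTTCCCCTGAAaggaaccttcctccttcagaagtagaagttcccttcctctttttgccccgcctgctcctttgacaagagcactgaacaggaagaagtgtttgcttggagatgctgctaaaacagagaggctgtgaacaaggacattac

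In the Raw264.7 libraries the deposited signal was a whole number of reads divided by 1 factor per library, and levels are given from these reads. Clec4e stood at 716 RPM in Zmynd8 KO, 567 in WT Zmynd8 and 908 in D/E-A, and at 20.49 in p65 KO, 49.3 in WT p65 and 198 in K122R. Clec4d stood at 343 (Zmynd8 KO), 498 (WT Zmynd8) and 268 (D/E-A), and at 4.89, 3.70 and 8.77 in p65 KO, WT p65 and K122R. For 7 of the 9 receptors every Zmynd8 library was above every p65 library. The share of all genes that lay apart in this way was not computed, so this count is not a result about the receptors. The tables were normalized separately and the sets differ in the markers given above, so no test was made between them.

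Clec4a1 lay between 259 and 348 RPM in the Zmynd8 libraries and between 1.68 and 3.06 in the p65 libraries, and Clec4a3 between 51.6 and 87.2 and between 0.901 and 2.43. Clec4a2 lay between 61.2 and 65.9 in the Zmynd8 libraries, and had 0 reads in p65 KO and K122R, which allows up to 0.198 and 0.180 RPM by counting error, and 1 read in WT p65. Clec4n lay between 16.8 and 42.8 against 0.1201 to 0.595, and Clec12a between 291 and 336 against 83.2 to 117. Clec5a (47.9 to 58.5 against 48.8 to 71.5) and Clec7a (54.0 to 62.4 against 35.9 to 72.9) overlapped between the sets.

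**Figure D4:**
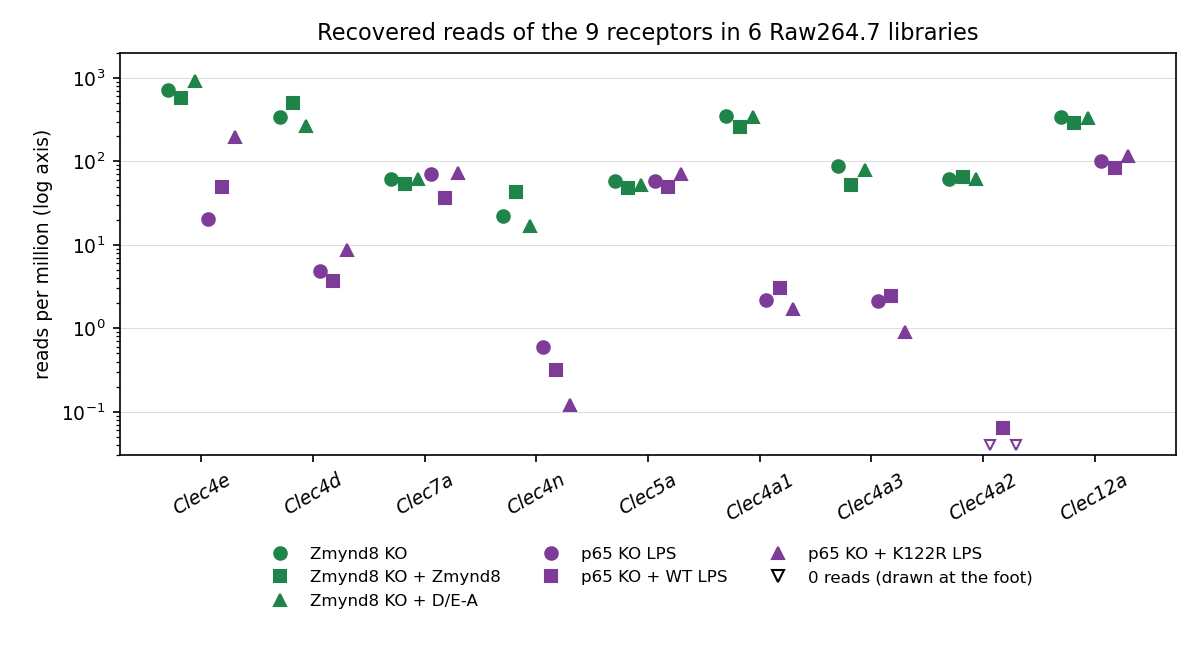
RPM, recovered reads scaled to library totals (log axis), of the 9 receptors in the 6 Raw264.7 libraries, 1 point per library, green for the Zmynd8 lines and purple for the p65 lines, with open triangles at the foot for 0 reads. Clec4a1 lies between 259 and 348 in the Zmynd8 lines and at 3.06 or less in the p65 lines, while Clec5a and Clec7a overlap.

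D/E-A and Zmynd8 KO were each set against the same WT Zmynd8 library, so their values share it and are given side by side. These comparisons asked what changes when ZMYND8 is lost or its D/E-A form takes its place. A gene was called at a fold of at least 1.2 on the deposited signal plus 1, since the deposited values are scaled and are not counts. An exact binomial test on the recovered reads was run as an alternative. Each line has 1 library, so neither rule has a replicate check. With D/E-A, 3 of the 9 receptors were called higher, where 36.7% of the 12771 genes listed were, and 2 lower, where 35.9% were. With Zmynd8 KO, 6 were called higher, where 33.8% of the 21301 genes tested were, and 2 lower, where 36.5% were.

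Clec4n had 788 reads in WT Zmynd8, 301 in D/E-A and 467 in Zmynd8 KO, with log2 fold changes of -1.32 (-1.52 to -1.13) with D/E-A and -0.87 (-1.04 to -0.71) in Zmynd8 KO. Clec4d had 9169, 4806 and 7219 reads, at -0.86 with D/E-A and -0.47 in Zmynd8 KO. Both were highest in the WT Zmynd8 library and lowest in D/E-A. Clec4e had 10435 reads in WT Zmynd8, 16276 in D/E-A and 15069 in Zmynd8 KO, at 0.71 with D/E-A and 0.41 in Zmynd8 KO. Clec4a3 (950, 1402 and 1834 reads, 0.63 and 0.83) and Clec4a1 (4758, 6124 and 7319 reads, 0.43 and 0.50) were lowest in WT Zmynd8.

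Clec5a (0.36), Clec7a (0.28) and Clec12a (0.28) were called higher in Zmynd8 KO alone, and with D/E-A they stood at 0.16, 0.20 and 0.22, under the 1.2 fold. Clec7a and Clec12a lost the call in Zmynd8 KO when library totals replaced the deposited scaling (0.21 for both). Clec4a2 was not called in either comparison (-0.08 and -0.03). Of the 14 partners, 7 were called higher and 3 lower with D/E-A and 7 and 1 with Zmynd8 KO. Over all genes the shares were 36.7% higher and 35.9% lower with D/E-A, and 33.8% and 36.5% with Zmynd8 KO. Fcer1g was called lower with D/E-A (-0.37) and was not called in Zmynd8 KO (-0.08). Syk (0.83 and 0.45) and Lyn, a Src-family kinase (1.17 and 0.83), were called higher in both. Other lectins gave 4 higher and 4 lower of 10 with D/E-A and 10 and 5 of 18 with Zmynd8 KO, LPS markers 4 and 2 of 8 and 4 and 1 of 8, and IL-4 markers 2 and 3 of 7 and 1 and 1 of 7. The neutrophil marker sum was highest in WT Zmynd8 (10487 RPM) and lowest in D/E-A (4482), the order also seen for Clec4d, Clec4n and the share of Rn18s-rs5. The macrophage marker sum ran the other way, from 6754 in D/E-A to 6370 in Zmynd8 KO and 5660.2 in WT Zmynd8, the order also seen for Clec4e, but its leading gene C1qb was highest in WT Zmynd8 (1617, against 1398 in Zmynd8 KO and 1311 in D/E-A). The part of these in the receptor values was not tested.

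K122R and p65 KO were likewise set against the same WT p65 library, which asked how the receptors change with the p65 form after LPS. Of the 9 receptors, 8 passed the filter of a mean signal of 1, and Clec4a2 did not. With K122R, 5 of 8 were called higher, where 30.8% of the 19670 genes tested were, and 3 lower, where 32.5% were. With p65 KO, 4 of 8 were called higher, where 26.3% of the 19879 genes tested were, and 2 lower, where 25.7% were.

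Clec4e had 773 reads in WT p65, 3290 in K122R and 310 in p65 KO, with log2 fold changes of 2.14 (2.03 to 2.26) for K122R and -1.27 (-1.46 to -1.08) for p65 KO. Rela itself had 1601, 5850 and 765 reads in these libraries, the same order as Clec4e, and its part in the value was not tested. Clec4d had 58, 146 and 74 reads, with 1.37 (0.94 to 1.85) and 0.39 (-0.11 to 0.92). Clec7a had 563, 1214 and 1074 reads, with 1.16 (1.02 to 1.31) for K122R and 0.98 (0.83 to 1.13) for p65 KO, so WT p65 was the lowest of the 3 libraries. Clec12a had 1303, 1950 and 1528 reads (0.64 and 0.28), and Clec5a 765, 1191 and 871 reads (0.69, and 0.24 without a call).

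Clec4a3 had 38 reads in WT p65, 15 in K122R and 32 in p65 KO (-1.23 for K122R, and -0.19 without a call), and Clec4a1 had 48, 28 and 33 reads (-0.70 and -0.48). Clec4n had 5 reads in WT p65, 2 in K122R and 9 in p65 KO, and the limits of its log2 ratio, -4.66 to 1.34 for K122R and -0.84 to 2.82 for p65 KO, span 0. By the fold alone Clec4n was called lower with K122R (-0.96) and higher with p65 KO (0.78), and it is in the counts above. At this depth its reads do not show a difference, and neither call held under the exact binomial test. When an exact binomial test on the reads was required as well, 3 of 8 receptors stayed called with p65 KO, Clec4e, Clec7a and Clec12a, and 6 of 8 with K122R. Under that rule 2620 of the 19879 genes tested were called with p65 KO and 5219 of 19670 with K122R. Library totals in place of the deposited scaling moved the median gene by -0.14 for K122R and turned no receptor. Of the 14 partners, 3 were called higher and 2 lower with K122R and 0 higher and 3 lower with p65 KO. Over all genes tested the shares were 30.8% higher and 32.5% lower with K122R, and 26.3% and 25.7% with p65 KO. LPS markers gave 4 higher and 2 lower of 8 with K122R and 0 and 4 of 8 with p65 KO, other lectins 4 and 3 of 11 and 6 and 2 of 12, and IL-4 markers 1 and 2 of 5 and 2 and 2 of 5.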

How the data were processed

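Receptors and lists were chosen with earlier results of these data known. For BMDMs, the authors deposited estimated counts, made per their methods by TopHat alignment to mm10, with no scaling, and these were rounded to whole numbers. The program that estimated them was not stated. The deposited TPM were computed by the authors from length and library size. For Raw264.7, the deposited signal is gene reads divided by 1 size factor per library and table, as read from the values, and the program was not stated. With a tolerance of 0.02, whole reads were recovered for 100% of values, and for 23771 of 23772 in Zmynd8 KO. Because signal is not a count, calls used the fold alone, and the exact binomial test on recovered reads, an alternative, called 7841 (D/E-A), 6682 (Zmynd8 KO), 5219 (K122R) and 2620 (p65 KO) genes. The authors' fold change and p columns hold their comparisons and were not used, nor were 2 further columns of per-sample values. The 431, 431 and 2 entries without a gene in the NT, LPS and IL-4 tables held no counts.

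The filter kept genes averaging 10 counts or more in BMDMs and a signal of 1 or more in Raw264.7. Named genes were all 9 receptors, some of the 6 genes per list and comparison with the highest mean CPM, up to 3 genes most like Clec4e, Clec7a or Clec4a2, and Zmynd8, Rela, Lyz2 and Xist as label checks. List genes with a higher mean CPM than some of those named, such as Nos2 after LPS and Olr1 after IL-4, were left out. A gene among the most similar and the monocyte markers after LPS are not reported here. Others (Ddx3y, and Rn18s-rs5 in Raw264.7) were named after their values were seen. Fits and limits were self-tested on simulated data, in which the fold alone also called many unchanged genes through counting error. Software was Python 3.11.15, numpy 2.4.6, scipy 1.17.1, pandas 2.3.3, matplotlib 3.10.9, R 4.3.3, edgeR 4.0.16 and DESeq2 1.42.0.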

Additional observations from a re-analysis of the deposited data

Results flagged for a closer look

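Clec4e and Clec4a1 were lower in the library labelled cKO than in WT without treatment and higher after IL-4, so the effects went opposite ways. The log2 fold change after IL-4 minus that in NT was 2.15 for Clec4e (1.504 and -0.64) and 1.06 for Clec4a1 (0.67 and -0.39). Each effect rests on 1 library per side, and the difference was not tested.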

How the results depend on the processing

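No paired analysis was possible because each group has 1 library, so replicates could not be matched between groups, though the fit of all 6 BMDM libraries holds treatment and genotype as terms. Apart from the values given here, directions were kept, and where a value changed the cause was not tested. LPS against NT kept 88 of 108 receptor values, with 10 weaker and 5 stronger. At a fold of at least 2, 3 receptors were called, all higher. Of the 13074 genes tested, 2543 were called higher and 2411 lower at that fold. Clec4n turned to 0.0465 with median-ratio factors and 0.0465 with DESeq2, and ranged from -0.17 to 0.16 when 1 library was left out, and Clec12a turned to -0.51 with library totals. IL-4 against NT kept 94 of 99. With 1 library left out, 1541 to 4423 genes were called, and Clec4a2 ranged from -0.17 to 0.21 and Clec4e from -0.0782 to 1.69.

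For cKO against WT over 3 treatments, 32 genes were called with no filter, 40 by DESeq2, 5 to 24 with 1 library left out, and 16 with the NT and LPS libraries alone, an alternative chosen after seeing the data. There Clec4a1 stood at -0.28 and Clec4e at -0.25, and with 1 library left out they ranged from -0.28 to 0.23 and from -0.25 to 0.81. Within a treatment, a fold of at least 2 called 0 receptors and 477 genes in NT, 0 and 112 with LPS, and 1 and 261 with IL-4, and edgeR's exact test at an assumed variation of 0.2 called 0 and 273, 0 and 37, and 1 and 160. By TPM, Clec4n (-0.0296) and Clec12a (-0.24) turned in NT and Clec7a (0.0768) after LPS, where Clec4d turned to -0.0247 by median ratio and -0.0267 by TMM. Of 63 receptor values per treatment, 14 were weaker and 3 stronger in NT, 6 weaker with LPS and 14 weaker with IL-4.

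In Raw264.7, a fold of at least 2 called 1 receptor and 2345 genes with D/E-A, 0 and 5459 with Zmynd8 KO, 4 and 3926 with K122R, and 1 and 3149 with p65 KO. With the binomial test added, 6682 genes were called with Zmynd8 KO, 5219 with K122R, and 2620 genes and 3 receptors with p65 KO. Receptor values were weaker in 4 of 45 (D/E-A), 10 of 45 (Zmynd8 KO), 6 of 40 (K122R) and 8 of 40 (p65 KO). By CPM per length, 4 receptors kept their place in the WT NT order. Depth limits Clec4n, Clec4a1, Clec4a2 and Clec4a3 in the p65 lines. It also limits Clec4d in the comparison of p65 KO with WT p65, where its limits (-0.11 to 0.92) span 0.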
